A study of Homo sapiens with 2 samples.

Results

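The guanylate-binding proteins (GBPs) are a family of interferon-inducible GTPases, and their transcripts were compared between cells with and without ectopic DLEU1, a long noncoding RNA. The members were GBP1 to GBP7, taken as all non-control probes whose gene name in the array files is one of these symbols. They had 8 probes of 58201 on the array and 7 gene names of 43317, and GBP3 alone had more than 1 probe. The cells were Ca9-22, an established oral squamous cell carcinoma (OSCC) line. One group carried a DLEU1 lentiviral vector and the other a control vector, which the methods give as an empty lentivirus. Both groups went through selection with blasticidin (6 mg/ml in the labels, for 2 weeks), so infection and selection were common to both. The DLEU1 insert was a full-length cDNA cloned from KON, another OSCC line. There was 1 array per vector, with Cy3-labeled total RNA, and without replicates no test could be run and no SD between cultures given. Whether each infected line held many clones or few is not given in the sources used here.

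GBPs belong to the dynamin superfamily of large GTPases. Interferon-gamma is their classical inducer, acting through factors that include IRF1, and in infected cells they coat bacteria and pathogen vacuoles and help to trigger inflammasomes. GBP1, GBP2 and GBP5 end in a CaaX box, a short motif to which a prenyl lipid is attached and which anchors them to membranes. In epithelial tumor cells they are commonly read as a record of interferon exposure. These arrays addressed how ectopic DLEU1 changes the expression profile of the cells, and the GBP family is a set of interferon-stimulated genes that sits in a single chromosomal cluster.

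The sequences below are those of the array probes on which the results turn, as given in the array files, each read 5′ to 3′. The GBP2 and GBP3 probes carry the 2-fold call and the disagreement between probes described further on, and the GBP5 probe runs over the end of the coding sequence. Only the first 30 of 60 bases are shown for GBP6 and for the GBP3 probe A_23_P51487. Capitals mark the codons of the CaaX box and the stop codon of GBP5.
GBP2 A_23_P85693: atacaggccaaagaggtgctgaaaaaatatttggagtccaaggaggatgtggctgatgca
GBP6 A_33_P3217437: gacaaacctatgacctcacacaaatctgta
GBP3 A_23_P51487: aatcctaaagcataagttagtcttttcctg
GBP3 A_21_P0010536: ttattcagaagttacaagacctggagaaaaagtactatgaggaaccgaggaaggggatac
GBP5 A_23_P74290: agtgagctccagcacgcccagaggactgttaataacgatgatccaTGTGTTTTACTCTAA
No GBP probe shared a run of 20 bases with any other non-control probe of the array (0 probes for each of the 8). Binding of a probe to the transcript of another family member was not tested.

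Signals are given first as the processed intensity of the spot, with the error that the scanner software assigned to it. Levels and differences are on the log2 scale after the 75th percentile of each array was subtracted, and a difference is always DLEU1 vector minus control vector. A gene was read from its brightest probe that was well above background on both arrays, and a change was called at 2-fold. Each GBP probe had a single spot. The technical spread was therefore taken from 282 other probes with replicated spots, whose log2 difference had an SD of 0.080 over spots, and the spread at a brightness like that of the member is given beside it. Neither holds the variation between cultures. DLEU1 itself, read first as a check of the labels, was 6.67-fold higher on the DLEU1 vector array by its brightest probe, a log2 difference of 2.74. The mean of its detected probes gave 1.38 and their median 0.85, which is under 2-fold.

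GBP2 and GBP6 were more than 4-fold higher with the DLEU1 vector, and no member was 2-fold lower. GBP2 and GBP6 were thus 2 of the 6 GBP genes detected on both arrays, against 9.18% of the 20246 genes detected on both arrays that were at least 2-fold higher. For lower genes the count was 0 of 6, against 9.78%. Of the 8 probes, 7 were detected on both arrays, and 2 of these were at least 2-fold higher, against 8.98% of all probes. The median difference over the 6 GBP genes was 0.40, and over all genes it was -0.07. A count of 2 in so small a family is a description of these arrays, and nothing particular to the family is read from it.

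**Figure D1:**
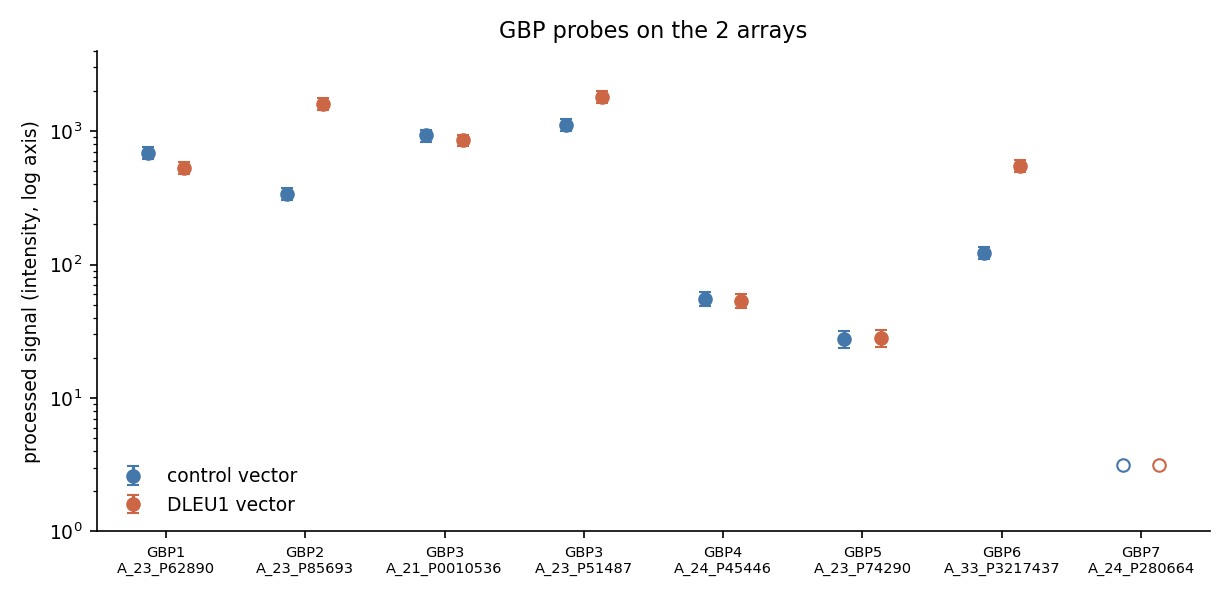
Processed signal (intensity, log axis) of the 8 GBP probes in control vector cells (blue) and DLEU1 vector cells (orange). Bars are the error given by the scanner software for the single spot, and open circles are values not well above background (GBP7). The GBP2 probe goes from 338 to 1608 and the GBP6 probe from 123 to 549, while both values of GBP1, GBP4 and GBP5 lie close together.

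GBP2 is a prenylated GBP that binds to vesicles and to pathogen vacuoles. Its probe reads transcript NM_004120 from base 1670, on chr1:89575896-89578160 (hg19, minus strand). This genomic span is 2265 bases for a probe of 60, so the probe crosses an exon junction. The signal was 338 ± 34.0 in control vector cells against 1608 ± 161 in DLEU1 vector cells (software error, 1 spot each). The log2 level thus went from 0.48 to 2.77, a difference of 2.29 or 4.88-fold. The spread between replicated spots of like brightness was 0.077 (83 probes). GBP2 ranked 295 of 20246 genes from the highest difference, above 98.5% of genes. The 100 nearest lit spots on the slide had a median difference of -0.14, and taking this off gave 2.42, the highest value among the settings tried.

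GBP6 is a less studied member that is abundant in squamous mucosa and lacks a CaaX box. Its probe A_33_P3217437 reads transcript NM_198460 from base 4795, on chr1:89853648-89853707 (hg19, plus strand). The signal was 123 ± 12.7 in control cells against 549 ± 55.0 in DLEU1 vector cells. The log2 level went from -0.98 to 1.22, a difference of 2.19 or 4.58-fold, and the replicated spots of like brightness had a spread of 0.13 (19 probes). GBP6 ranked above 98.4% of genes, close behind GBP2, and the 2 differences were 0.09 apart, within that spread. The scanner software did not locate a distinct spot for this probe on either array, although it called the signal well above background on both. This happened for 1.59% of the 6308 single-spot probes of like brightness, and its part in the result was not tested. The GBP6 difference was 1.74 after normexp background correction, still past 2-fold.

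GBP3 is closely related to GBP1 and lies next to it, and its probes did not give the same answer. The probe A_23_P51487, from base 2791 of transcript NM_018284 (chr1:89472549-89472608, hg19, minus strand), had a signal of 1119 ± 112 in control cells against 1808 ± 181 in DLEU1 vector cells. This is a log2 difference of 0.73 or 1.66-fold, short of the 2-fold call. The probe A_21_P0010536, from base 1505 of the same transcript (chr1:89476589-89476648), had 928 ± 92.9 and 854 ± 85.4, a difference of -0.08. Replicated spots of like brightness spread by 0.065 and 0.072, so the gap of 0.81 between the probes is far above the spread between spots. Gaps of this size or more were found in 519 of 3651 genes with 2 detected probes (14.2%), and the median gap of such genes was 0.30. The probe A_21_P0010536 also lists, among its target transcripts, the one named for the pseudogene GBP1P1. GBP3 is therefore reported as uncertain, at 0.73 by its brighter probe and at 0.32 by the mean of both.

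GBP1, the founding member and a coat protein of cytosolic bacteria, had the lowest difference of the family. Its signal was 687 ± 68.7 in control cells against 532 ± 53.3 in DLEU1 vector cells (chr1:89518789-89518848, hg19, minus strand). The log2 difference was -0.33, a level 1.26-fold lower, against a spread of 0.087 between replicated spots of like brightness. This is inside the 2-fold limit, and 34.6% of all genes had a lower difference. GBP1 and GBP2 thus went apart by 2.62 on the log2 scale. This gap does not depend on a constant scaling factor, and it stayed between 2.40 and 2.69 under the settings tried.

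GBP4 and GBP5 were dim and close to equal on both arrays. The GBP4 signal was 55.6 ± 6.61 in control cells against 53.7 ± 6.48 in DLEU1 vector cells, a log2 difference of -0.01 (chr1:89647736-89647795, hg19, minus strand). GBP5, a prenylated member that promotes inflammasome assembly, had 27.7 ± 4.18 and 28.2 ± 4.24, a difference of 0.06 (chr1:89726387-89726446, minus strand). The scanner software located no distinct spot for GBP5 on the DLEU1 vector array. The dimmest detected probe had a signal of 14.2 on the control array and of 14.3 on the other, so GBP5 lay near the limit of detection. At this brightness replicated spots spread by 0.25 (4 probes, like GBP4) and 0.37 (3 probes, like GBP5), and a difference of that size or less could not have been seen. GBP7 was not well above background on either array, with surrogate signals of 3.13 and 3.17, and no fold is given for it.

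**Figure D2:**
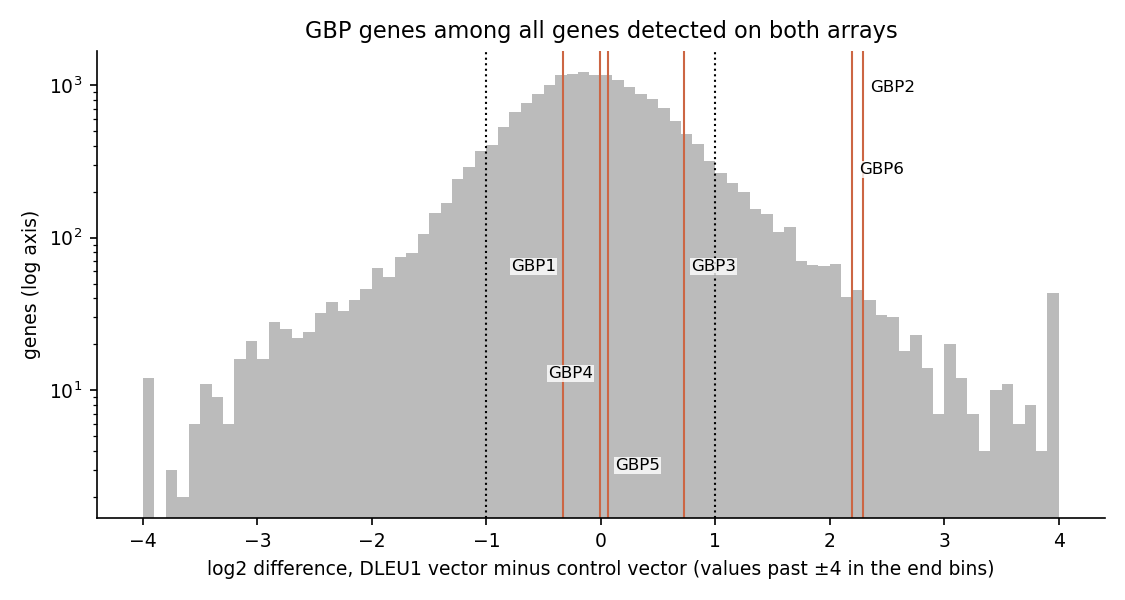
Log2 difference of the 20246 genes detected on both arrays (grey, number of genes per 0.1 log2, log axis), with the 6 detected GBP genes as orange lines and 2-fold as dotted lines. GBP2 and GBP6 lie beyond the upper dotted line, and GBP1, GBP3, GBP4 and GBP5 lie between the dotted lines.

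The GBP genes lie side by side on chromosome 1, in the order GBP3, GBP1, GBP2, GBP7, GBP4, GBP5 and GBP6 by probe position, and they were read along it to see whether the higher members were neighbors. They were not. The probes of GBP3 and GBP6 are 381 kb apart, and GBP2 is separated from GBP6 by GBP7, GBP4 and GBP5, none of which was called. The pseudogene GBP1P1, which is not a member and lies beyond GBP6, was higher by 0.64 with both of its probes. Its signals were dim, 81.9 and 125 with the brighter probe A_19_P00808588 and 47.2 and 71.5 with A_21_P0010537. Replicated spots of like brightness spread by 0.18 (5 probes) and 0.25 (4 probes). For A_21_P0010537 the scanner software located no distinct spot on the DLEU1 vector array. Of the 14 gene names listed as neighbors outside the cluster, 13 had a probe, and KYAT3, a newer name of the listed CCBL2, had none. Of the 13, 12 were detected on both arrays, and their median difference was -0.26. Among these LRRC8C (-1.24), a subunit of volume-regulated anion channels, was the only gene past 2-fold by its brightest probe, though not with normexp. LRRC8B (0.77), another such subunit, was the highest. Probes of some neighbors disagreed. ZNF326 was at -0.95 by its brightest probe, and at -1.01 and 0.15 by its others. SH3GLB1 was at 0.01 by its brightest probe and at 0.80 by the other, and the other LRRC8C probe was at -0.85.

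**Figure D3:**
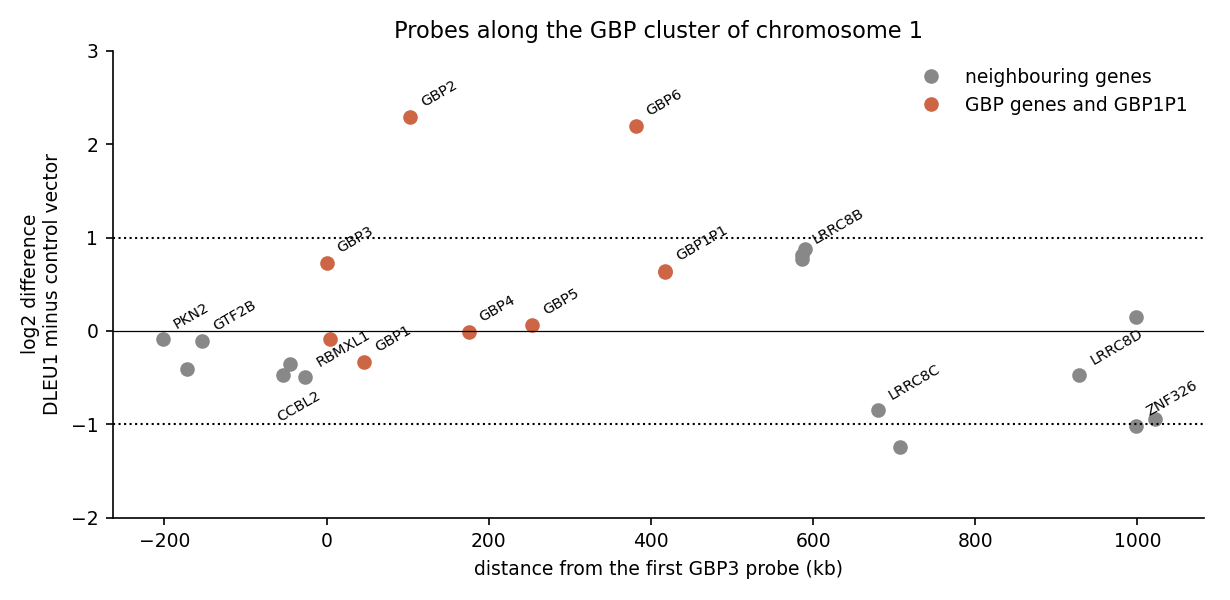
Log2 difference of each detected probe of the plotted region against its distance from the first GBP3 probe (kb), with 2-fold as dotted lines. GBP genes and GBP1P1 are orange and neighboring genes grey. Detected probes of SH3GLB1, SEP15, HS2ST1 and LMO4 lie further off and are not shown. GBP2 (2.29) and GBP6 (2.19) stand above detected members next to them, such as GBP1 (-0.33) and GBP5 (0.06).

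Promoter sequences were read to show what the members share beside their position, since GBPs are textbook targets of STAT and IRF factors. The RefSeq table held promoters (250 bases before to 50 after the gene start, GRCh38.p14) for 5 of the 7 members, GBP1, GBP3, GBP4, GBP6 and GBP7. Both strands were searched for GAAANNGAA, part of the core of the interferon-stimulated response element (ISRE). The strands were searched for TTCNNNGAA too, a palindromic form of the gamma-activated site (GAS). They were also searched for TGANTCA, an AP-1-like motif that allows any middle base, so a match need not be a site that AP-1 factors bind. The letters of all 3 motifs were chosen after the promoters had been seen. For the ISRE a longer form was searched before this one was taken. GAAANNGAA was found in GBP1, GBP3 and GBP4, and in 8.11% of 35116 promoters of this length. TTCNNNGAA was found in GBP3 only of the 5, and in 7.66% of all promoters. Other forms of the GAS were not searched, so a promoter without this match may still hold such a site. TGANTCA was found in GBP3 and GBP6, and in 7.71% of all. The windows holding them follow on the strand of the gene, with the matches in capitals, and for GBP6 the whole upstream part is given because it was the only higher member with a promoter entry.
GBP1, bases -136 to -108 from the gene start, chr1:89065316-89065344 (GRCh38.p14, minus strand): acgaagtactTTCAGTTTCatattactct
GBP1, bases 28 to 50, chr1:89065159-89065181 (minus strand): gaactaaggaGAAAAAGAAcagg
GBP3, bases -33 to 22, chr1:89022845-89022899 (minus strand): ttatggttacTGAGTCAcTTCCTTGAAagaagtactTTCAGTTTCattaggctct
GBP4, bases -13 to 16, chr1:89198927-89198955 (minus strand): tgcatgtcctTTCAATTTCggttctcaca
GBP6, bases -250 to -1, chr1:89363809-89364058 (plus strand): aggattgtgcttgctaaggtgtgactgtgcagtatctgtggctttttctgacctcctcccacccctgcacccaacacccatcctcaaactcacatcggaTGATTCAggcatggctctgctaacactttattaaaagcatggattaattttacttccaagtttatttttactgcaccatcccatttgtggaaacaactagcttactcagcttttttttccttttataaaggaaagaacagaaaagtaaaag
The ISRE-like match upstream of GBP1 has the same letters as that of GBP3, TTCAGTTTC, and GBP4 has a different middle, TTCAATTTC. GBP1 held another match after the gene start, GAAAAAGAA, on the other strand. The matches did not overlap one another. The 3 members with this match had differences of -0.33, 0.73 and -0.01, and GBP6, without it in this window, had 2.19. GBP7 held none of the 3 motifs. A match is only a run of letters, and its absence says nothing of the factor.

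The genes that carry the interferon signal to GBP promoters were then read. Of 16 listed, 15 were detected on both arrays, and 3 were at least 2-fold higher, with 0 lower. STAT2, a factor of the type I interferon response, was higher by 1.94 (signal 4241 to 15847). PIAS1, a SUMO ligase that restrains cytokine signaling, was higher by 1.51 (118 to 328), and by 0.96 with the spike-in trend removed. IRF1, the factor that drives GBP genes directly, was higher by 1.03 (375 to 743), just past the limit, and fell short of it under 5 settings, median scaling (0.91) among them. The receptor chains IFNGR1 and IFNGR2 differed by 0.00 and -0.22, and the feedback inhibitor SOCS1 by -0.93, the lowest of the list. SOCS1 was past 2-fold lower with median scaling (-1.05) and with both spike-in scalings (-1.33 and -1.49). The list median was 0.05 and changed sign with median scaling and with both spike-in scalings.

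Other targets of interferon-gamma were mostly under 2-fold. Of 26 listed, 19 were detected on both arrays, and 1 gene passed 2-fold in each direction. The list median was 0.02 and changed sign under 4 settings. HLA-DMA, which loads peptides on MHC class II, was higher by 1.16, and the aminopeptidase LAP3 differed by -1.06. Each of these 2 calls was lost under 3 settings. The proteasome subunits PSMB8 and PSMB9 differed by 0.02 and 0.23 and the peptide transporter TAP1 by 0.28. The checkpoint ligand CD274 was close to equal on both arrays, at a signal of 23.0 and 22.4. This is dimmer than GBP5 and near the limit of detection, so a small difference could not have been seen. HLA-DRA (at least 4.82-fold higher) and its regulator CIITA (at least 2.88-fold higher) were well above background with the DLEU1 vector only. The chemokines CXCL10 (at least 2.62-fold lower) and CXCL11 (at least 2.02-fold lower) were so with the control vector only, and CXCL9, IDO1 and CD74 on neither array. The signals on the array where these genes were detected were dim. They were 66.7 for HLA-DRA, 39.8 for CIITA, 38.5 for CXCL10 and 29.6 for CXCL11. The bounds carry the spread between spots at such brightness, and no range over settings is given for them. GBP genes and other interferon-gamma targets thus held genes on both sides of 0, and whether the lists differ was not tested.

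Among the relatives of the GBPs, none was at least 2-fold higher and 1 was at least 2-fold lower. Of 17 other dynamin-like or interferon-inducible GTPases, 14 were detected on both arrays with a median of -0.07, which changed sign under 7 settings. ATL3, an atlastin that fuses membranes of the endoplasmic reticulum, was lowest at -1.10 and its relative ATL1 highest at 0.81. ATL3 was just short of 2-fold lower with loess and with the percentile taken over detected probes (-0.99 in both). The antiviral GTPases MX1 and MX2 differed by 0.23 and -0.12. IRGM and the pseudogene GVINP1, also on this list, were not detected on either array.

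The partners through which GBPs act were mostly close to equal on both arrays. Of 14 genes of inflammasomes and related defense, 13 were detected on both arrays with a median of 0.05, 2 were at least 2-fold higher and 0 lower. PYCARD, the adaptor of inflammasomes, was higher by 1.12 (1693 to 3581), and the kinase PIM1, which phosphorylates GBP1, by 1.05. With the spike-in scalings both were under 2-fold, and PIM1 was so also with median scaling (0.94) and normexp (0.98). The list median changed sign under 4 settings. CASP4, the receptor of bacterial lipopolysaccharide that is recruited by GBP1, differed by 0.05, the pore-forming GSDMD by -0.05 and IL1B by -0.53. The 6 genes of CaaX prenylation were all detected, and none passed 2-fold. They ranged from FNTA (0.38), the shared subunit of the prenyl transferases, to the methyltransferase ICMT (-0.78), with a median of -0.41. With the spike-in scalings ICMT was past 2-fold lower (-1.18 and -1.33) and FNTA was just under 0 (-0.02 and -0.04).

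**Figure D4:**
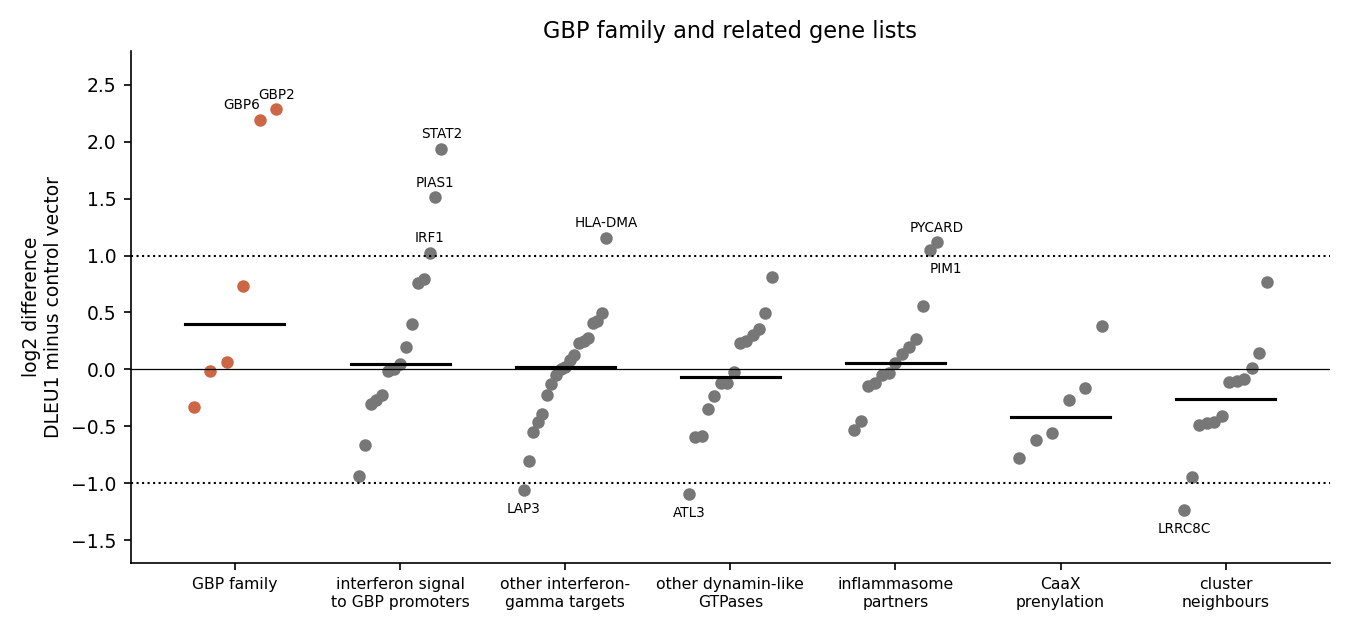
Log2 difference of each gene detected on both arrays, for the GBP family (orange) and 6 related lists (grey), with list medians as black bars and 2-fold as dotted lines. GBP2 and GBP6 lie above every plotted gene of the other lists, the nearest being STAT2 (1.94). Genes detected on 1 array only (HLA-DRA, CIITA, CXCL10 and CXCL11) are not plotted and are not part of this ranking. The family median of 0.40 rests on members from -0.33 to 2.29.

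Bulk RNA was measured, so more cells with a transcript and more transcript per cell cannot be told apart. On the 2 arrays 47.6% and 48.1% of probes were well above background. All 8 squamous epithelial markers were detected on both arrays, and 6 of them were at least 2-fold higher with the DLEU1 vector, KRT17 (3.09), KRT6A, KRT14, DSG3, KRT5 and CDH1 (1.04). TP63 differed by 0.96 and EPCAM by -0.78 (18084 to 10238). Their summed signal went from 79316 to 338439. Of 5 leukocyte markers, 2 were detected, both under 2-fold, and the sum was 248 and 234. The myeloid sum went from 1140 to 3665, with CSF1R higher by 1.86 and CD14 at -1.60, the endothelial sum from 108 to 648 through VWF (3.70) alone, and the fibroblast sum from 343 to 5225 through COL1A1 (3.99) alone. CD3E, MS4A1, NCAM1, PECAM1, COL3A1 and PDGFRA were not well above background on either array. The part of these markers in the GBP2 and GBP6 differences was not tested.

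The GBP calls were last compared across 19 other settings. GBP2 and GBP6 were at least 2-fold higher in all 19, at 1.74 to 2.42 and 1.63 to 2.31, and no member was 2-fold lower in any of them. Filters, thresholds and gene summaries could not change the difference of either gene, which has a single probe detected on both arrays. The series values are the same intensity, rounded. Only the scalings, detrendings and normexp could therefore move these differences. The lowest values came from the scaling that removed the spike-in trend. GBP4 and GBP5 changed sign under 3 and 4 settings. With the spike-in trend removed GBP1, GBP4 and GBP5 reached -0.88, -0.54 and -0.47, each past its spread between spots (0.087, 0.25 and 0.37). The spreads for GBP4 and GBP5 rest on 4 and 3 probes. In that setting the median of all genes was -0.57, so no change particular to these members is read from it. None of the GBP probes lay in the 4 regions of the slide with an excess of dim spots.

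**Figure D5:**
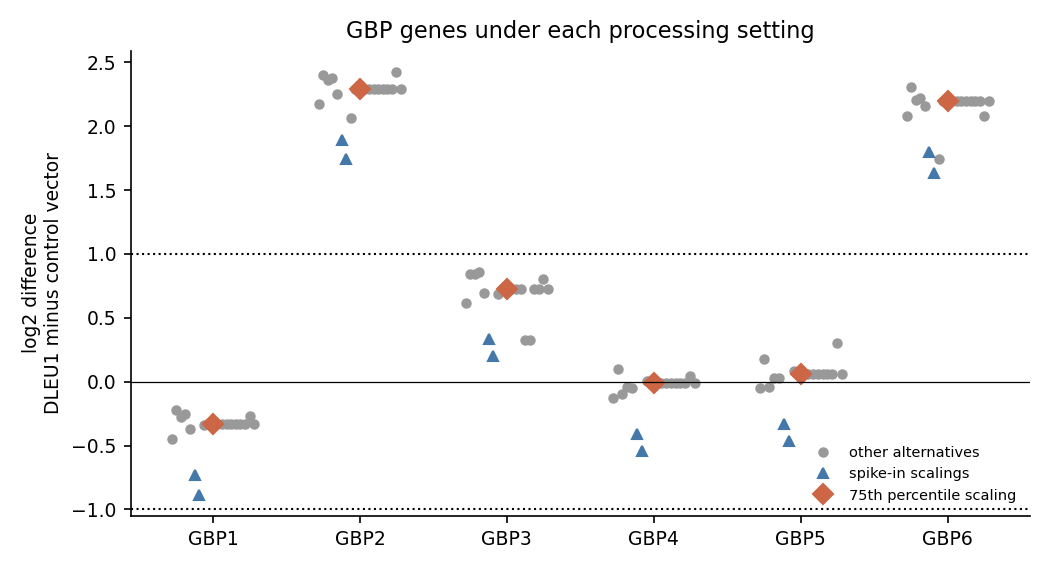
Log2 difference of the 6 detected GBP genes under 75th percentile scaling (diamonds), under both spike-in scalings (triangles) and under the other alternatives (grey circles), with 2-fold as dotted lines. GBP2 and GBP6 stay above the upper dotted line, and the spike-in scalings give the lowest or nearly the lowest value of each gene.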

How the data were processed

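The deposited intensity values came from Agilent 1-color arrays read with Feature Extraction 10.7.3.1. Per the file headers, background was subtracted, spatial trends were removed and surrogates replaced the signal of dim spots. GeneSpring was then used by the authors. The deposited series values were the same processed intensity, rounded. All genes were scaled together. Control spots and spots marked as outliers (84 and 103) were left out, log2 signals were averaged over each probe's spots, and each array's 75th percentile of non-control probes was subtracted (7.92 and 7.88). A probe was detected where most of its spots were marked as well above background. For a gene detected on 1 array only, the fold is a bound against the dimmest detected signal, or the probe's own where higher. Settings tried were 7 other scalings or detrendings, normexp with an offset of 50 (limma 3.58.1), the series values, and other filters, thresholds and gene summaries. Functions were tested on simulated data. Both arrays shared a slide and a scan. All members and their probes were named, with the genes past 2-fold (up to 6) and the extremes of each list. Genes beyond these were chosen after their values were seen. Values of some listed genes are not reported here. Members and lists were chosen with earlier results of these data known. Arrays, 1 per group, limit the precision of every value.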

Additional observations from a re-analysis of the deposited data

How the results depend on the processing

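The count of GBP genes at least 2-fold higher was 2 in all settings but the 1.5-fold threshold, where GBP3 made it 3, and the count lower was 0 in all. The median difference of the detected GBP genes, 0.40, came to 0.28 when arrays were scaled by the median, 0.51 when the 75th percentile was taken over probes detected, -0.00090 with spike-in probes set equal and -0.13 with the spike-in trend taken off. It was 0.064 with no filter on dim probes, which adds GBP7, 1.46 where both signals had to reach 100, which leaves 4 genes, 0.19 with the mean or the median of the detected probes, which changes GBP3, and 0.55 with the median of the 100 nearest spots taken off. These scalings moved the median of all genes by -0.11, 0.11, -0.40 and -0.50 in the order given, and taking off the nearest spots by 0.09. Of 112 values of the 6 genes under alternatives, 37 moved by more than the spot SD and 7 changed sign, all in GBP4 and GBP5. Many of the 112 could not move, since filters, thresholds and gene summaries leave the value of a gene with a single detected probe as it was. No replicate could be left out and no slide block fitted with 1 array per group. No paired analysis was possible because each group has a single array. Dim signal limits GBP4, GBP5 and GBP7.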
